A study of Mus musculus with 2 samples.

Results

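Htr2c encodes the serotonin receptor 5-HT2C, and its introns hold a set of microRNA genes on the same strand. Rows were taken as members when GENCODE M21 on mm10 gives a miRNA gene with a Mir symbol inside the bounds and on the strand of Htr2c. This gave 5 of the 2202 loci in the files: Mir764, Mir1912, Mir1264, Mir1298 and Mir448. The libraries hold RNA below 30 nt from left cerebral cortex of female B6CASTF1/J mice aged 14 days, which are F1 hybrids of the C57BL/6J and CAST backgrounds, with no treatment. There was 1 group of 2 biological replicates. Several females are mentioned for replicate 1 and a single one for replicate 2, both labels carry the same donor record, and whether replicate 1 pools animals is not stated. The spread given here is therefore that of these 2 libraries and may be technical in part.

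MicroRNAs are cut from hairpin precursors, and those inside introns are often released from the transcript of their host gene. A mature microRNA pairs with messenger RNAs mainly through its seed, bases 2 to 8 from the 5′ end, and lowers their output. The 5-HT2C receptor signals through Gq proteins, is known from neurons of several brain regions and is especially abundant in the epithelium of the choroid plexus. Its transcript is also known for adenosine-to-inosine editing. No messenger RNA was measured in these files, so the level of Htr2c itself was not analysed here.

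The mature sequences identify the annotated products of each locus, and they are shown 5′ to 3′ with the seed in capitals. They come from RefSeq (GRCm38.p6), in which 5 of 5 members matched, with 8 mature sequences. In the order of the loci along the gene they are as follows.
mmu-miR-764-5p: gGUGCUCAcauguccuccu
mmu-miR-764-3p: aGGAGGCCauaguggcaacugu
mmu-miR-1912-3p: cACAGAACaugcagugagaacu
mmu-miR-1264-3p: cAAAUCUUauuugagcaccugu
mmu-miR-1298-5p: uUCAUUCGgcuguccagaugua
mmu-miR-1298-3p: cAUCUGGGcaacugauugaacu
mmu-miR-448-5p: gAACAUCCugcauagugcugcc
mmu-miR-448-3p: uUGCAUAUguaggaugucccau

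The 8 seeds were all different, so no pair of these annotated products shares one. Mir1912 and Mir1264 have a 3p product alone in this source, so the seeds of their other arms were not compared. Among the 1738 mature entries of the table, with 1398 distinct seeds, 1 other microRNA shares a seed with a member: mmu-miR-7062-5p has that of mmu-miR-764-3p, and its locus Mir7062 had 5 reads in each library. The GC content of the 8 mature sequences ran from 36.4% for mmu-miR-1264-3p to 57.9% for mmu-miR-764-5p. None of the 8 occurs in another annotated hairpin.

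The hairpins of Mir1298 and Mir448 carry most of the results. They are given from the GENCODE M21 transcripts as DNA letters, 5′ to 3′ on the plus strand of mm10, with both mature arms in capitals.
Mir1298, chrX:147064905-147065002: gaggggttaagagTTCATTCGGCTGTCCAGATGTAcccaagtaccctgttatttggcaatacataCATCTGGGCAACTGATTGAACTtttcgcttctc
Mir448, chrX:147158210-147158321: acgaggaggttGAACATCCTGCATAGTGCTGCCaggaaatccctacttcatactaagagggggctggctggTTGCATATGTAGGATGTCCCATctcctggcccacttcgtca

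The files count reads per hairpin and not per arm, so the balance of the 5p and 3p products could not be read from them. The longest stretch that a member shares with any other annotated microRNA hairpin, on either strand, was 12 nt for Mir1298, Mir1264 and Mir1912 and 13 nt for Mir448 and Mir764. None of the 5 thus shares a stretch of 20 nt with another annotated locus. Similarity to the rest of the genome was not analysed here. Folded with RNAfold, the Mir1298 hairpin had a minimum free energy of −0.47 kcal/mol per nt and Mir448 −0.45, with Mir1912 at −0.47, Mir764 at −0.46 and Mir1264 at −0.40. Over the 389 loci with at least 10 reads in each library the median was −0.43 and the middle range, between the quartiles, −0.48 to −0.38, so all 5 lie in that range. G and C made up 36.0% of the Mir1264 hairpin, 37.9% of Mir1912 and 44.9% of Mir1298, below the lower quartile of 45.0% over those 389 loci. Mir764 had 46.3% and Mir448 52.7%.

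Htr2c lies on the plus strand of the X chromosome, chrX:146962513-147197277, and spans 234.765 kb. None of the members overlaps an exon in any of its 7 annotated transcripts. In the transcript Htr2c-201, which has 6 exons, Mir764, Mir1912, Mir1264 and Mir1298 lie in intron 2 and Mir448 lies in intron 4. Intron 2 is 90.8 kb long and intron 4 is 93.5 kb long. Mir764 (chrX:147002259-147002366) starts 39.7 kb from the gene start. Mir1912 (chrX:147009441-147009527) and Mir1264 (chrX:147010601-147010686) lie 1.07 kb apart, at 46.9 and 48.1 kb. Mir1298 stands 54.2 kb further on, at 102 kb, and ends 7.38 kb before the next exon. Mir448, at 196 kb, ends 11.2 kb before its own next exon, and 93.2 kb separate it from Mir1298.

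**Figure D1:**
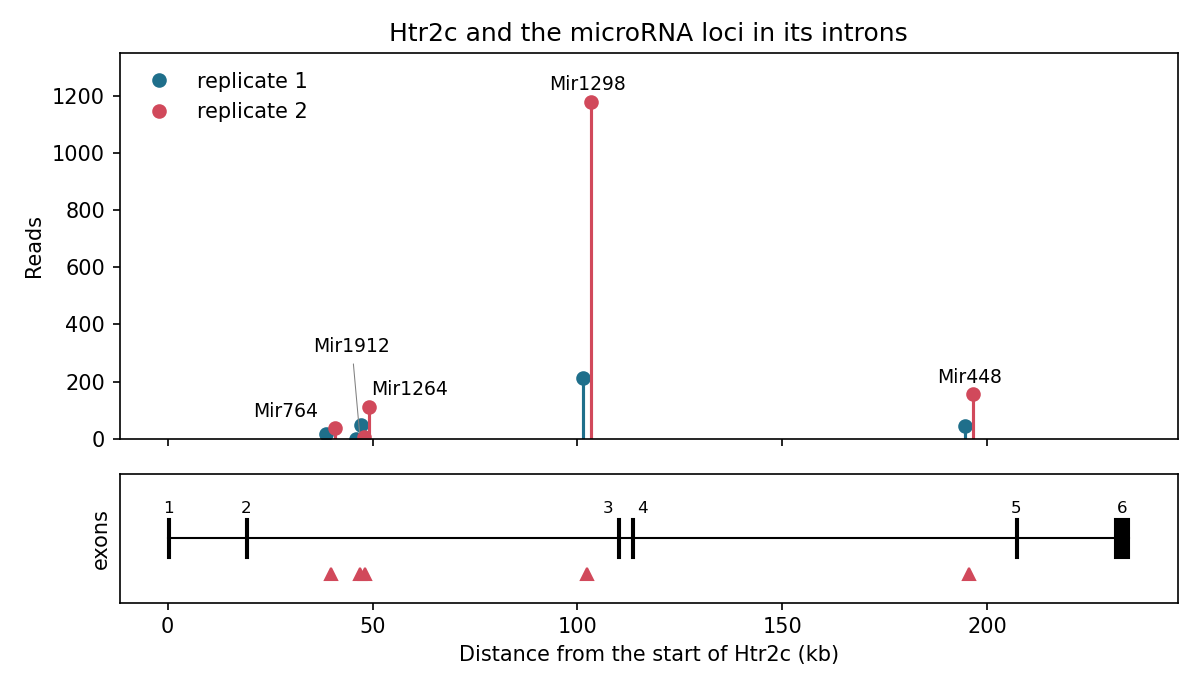
Reads at each member by distance from the start of Htr2c in kb (top; points of replicates 1 and 2 are set 1 kb to either side of the locus) over the exons of Htr2c-201, numbered, with triangles at the hairpins (bottom; exons are drawn at least 0.6 kb wide). Mir1298 in intron 2 stands above the rest with 214 and 1180 reads, and its neighbour Mir1264 in the same intron has 49 and 112.

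Replicate 1 held 2740332 reads assigned to microRNA loci, 35.4% of all its reads, and replicate 2 held 3207941, 33.3%. Levels are reads scaled to 1000000 assigned reads of the library (CPM), and 1 read is worth 0.365 CPM in replicate 1 and 0.312 CPM in replicate 2. A further 40.6% and 37.9% of reads mapped to several places and enter no locus. A locus is called detected with at least 10 reads in each library. Intervals are exact 95% intervals (Poisson for reads and levels, Clopper-Pearson binomial for shares and ratios) and take in counting error alone. The labels name no molecular identifiers, so reads copied from the same molecule cannot be told apart. Intervals and p-values that treat reads as independent may therefore be too narrow or too small.

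All 5 members had reads in replicate 2 and 4 in replicate 1, and 4 were detected. Mir1298 was by far the most abundant, and Mir1912 was near the limit of what these libraries can show. Of all 2202 loci 17.7% were detected, of the 1174 loci with a Mir symbol 32.4%, and of the 33 such loci in introns of protein-coding genes on the X chromosome 60.6%, members included. No member had a read on the opposite strand in either library, and counting without regard to strand gave the same reads at each of the 5.

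Mir1298 had 214 reads in replicate 1 and 1180 in replicate 2. These are 78.1 CPM (68.0 to 89.3) and 368 CPM (347 to 389), a mean of 223 ± 205 CPM (SD, n = 2). Its lower library lay above the higher library of every other member. Among the 90 X-linked Mir loci it ranked 17 by mean level, among the 33 in introns of X-linked protein-coding genes 11, and among all 2202 loci 174. The median level of the 389 detected loci was 149 CPM, above Mir1298 in replicate 1 and below it in replicate 2.

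Mir448 had 46 and 155 reads, or 16.8 CPM (12.3 to 22.4) in replicate 1 and 48.3 CPM (41.0 to 56.6) in replicate 2. Its mean was 32.6 ± 22.3 CPM (SD, n = 2), rank 261 of all loci. Mir1264 had 49 and 112 reads, or 17.9 CPM (13.2 to 23.6) and 34.9 CPM (28.7 to 42.0). Its mean was 26.4 ± 12.0 CPM (SD, n = 2), rank 271. The ranges of Mir448 and Mir1264 over the libraries overlapped. Mir1264 was ahead in replicate 1 and Mir448 in replicate 2, so their order was not resolved.

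Mir764 had 15 reads in replicate 1 and 36 in replicate 2, just inside the detection minimum. This is 5.47 CPM (3.06 to 9.03) and 11.2 CPM (7.86 to 15.5), with a mean of 8.35 ± 4.06 CPM (SD, n = 2). Both of its libraries lay below both libraries of Mir448 and of Mir1264. Mir1912 was the member outside the minimum, with 0 reads in replicate 1 and 5 in replicate 2, or 1.56 CPM (0.506 to 3.64). By the one-sided rule that a count of 0 is compatible with up to 3 reads, replicate 1 could hold 1.09 CPM, and its two-sided exact interval reaches 1.35 CPM, so a difference between the libraries was not detectable at this depth. With no minimum on reads, its adjusted p was 0.17 (exact binomial test, 752 loci).

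**Figure D2:**
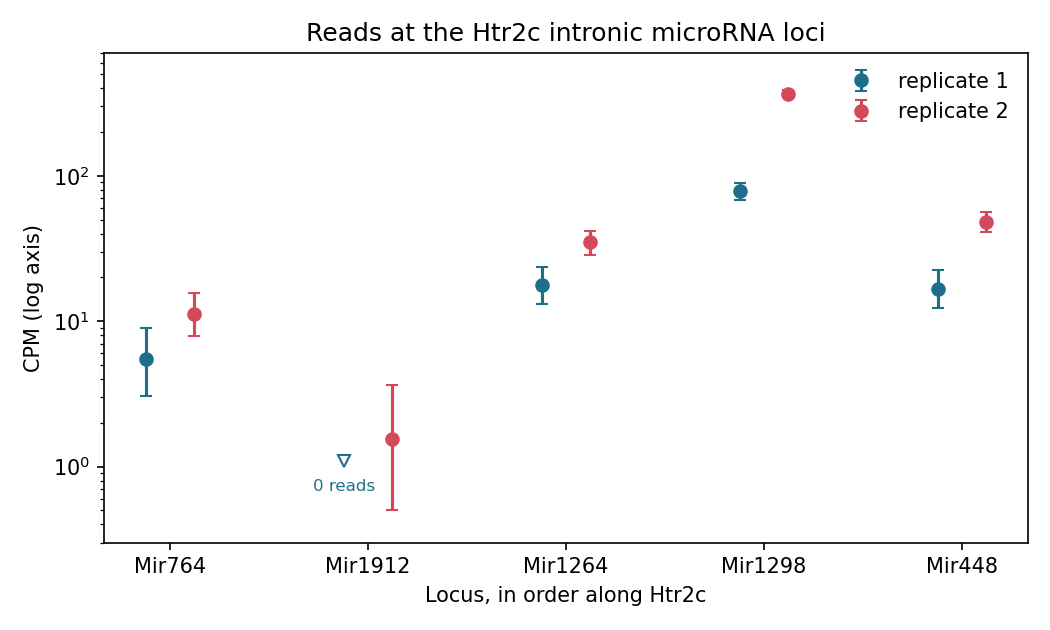
CPM on a log axis for each member in order along the gene, replicate 1 in blue and replicate 2 in red, with exact 95% Poisson intervals; the open triangle marks the one-sided limit that 0 reads allow for Mir1912 in replicate 1 (1.09 CPM). Replicate 2 is the higher at the 4 detected members, Mir1912 is not resolved between the libraries, and Mir1298 lies above the others in both.

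The order was Mir1298, then Mir448 and Mir1264 without a resolved order, then Mir764, then Mir1912, in both libraries. It did not follow position in the gene. Mir1264 and Mir1912 are the closest neighbours, yet Mir1264 had 49 reads where Mir1912 had 0, and 112 where it had 5. Each read comes from a short RNA and not from a piece of a long transcript, so the levels above are not divided by length. Per 100 nt of hairpin the mean levels were 228 CPM for Mir1298, 30.7 for Mir1264, 29.1 for Mir448, 7.73 for Mir764 and 0.896 for Mir1912. On that scale Mir1264 and Mir448 change places, and the rest of the order is the same.

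Together the members held 324 reads in replicate 1 and 1488 in replicate 2. This is 0.0118% (0.0106 to 0.0132) and 0.0464% (0.0441 to 0.0488) of assigned reads, a 3.92-fold larger share in replicate 2. Their share of the reads on X-linked Mir loci was 0.266% (0.238 to 0.297) and 1.19% (1.14 to 1.26). They are thus a small part of the X-linked reads in both libraries.

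The make-up of these reads also differed between the libraries. Mir1298 gave 66.0% (60.6 to 71.2) of the members' reads in replicate 1 and 79.3% (77.2 to 81.3) in replicate 2, and these intervals did not overlap. Mir1264 gave 15.1% (11.4 to 19.5) and 7.53% (6.24 to 8.99), also without overlap. Shares of the same total are not independent, so a larger share of Mir1298 by itself lowers that of the others. These intervals take in counting error alone and not the spread between libraries. Mir448 gave 14.2% (10.6 to 18.5) and 10.4% (8.91 to 12.1), and Mir764 4.63% (2.61 to 7.52) and 2.42% (1.70 to 3.33), with intervals that overlapped for both.

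With 1 group, the contrast that can be tested is between the libraries. Ratios are replicate 2 over replicate 1 of reads scaled by the trimmed mean of M values (TMM), and an exact binomial test (two-sided) was run on each detected locus and adjusted by Benjamini and Hochberg over the 389. The p-values compare these 2 libraries and not conditions, and cover counting error only. Of all 389 loci, 227 (58.4%) passed at 0.05, 112 higher in replicate 2 (28.8%) and 115 lower. The split is 159 higher and 77 lower when libraries are scaled by their totals, which moves the median log2 ratio of all loci from −0.0098 to 0.16. At least 2-fold higher in replicate 2 and past the test were 25 loci (6.43%).

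All 4 detected members had more CPM in replicate 2, as did 61.7% of the 389 loci. Of the 4, 3 passed the test, all higher in replicate 2, and 2 of these by at least 2-fold. Mir1298 had a log2 ratio of 2.06 (1.85 to 2.28), which is 4.18-fold, with an adjusted p of 1.14e-108 by the exact binomial test. It was the fifth highest ratio of the 389. Mir448 had a log2 ratio of 1.35 (0.87 to 1.86), 2.55-fold, with an adjusted p of 9.08e-09 by the same exact test, and ranked 11. Mir1264 had a log2 ratio of 0.79 (0.30 to 1.31), 1.73-fold, with an adjusted p of 0.00214 by the exact test. Mir764 had a log2 ratio of 0.86 (−0.04 to 1.84) and did not pass (exact test, adjusted p = 0.077). It passed when libraries were scaled by their totals, with a log2 ratio of 1.04 and an adjusted p of 0.029.

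The median log2 ratio of the 4 detected members was 1.11, against −0.0098 over all 389, whose SD was 0.70. The detected members alone enter this median, and with 4 loci it rests on few values. The 4 log2 ratios span 0.79 to 2.06, and the interval of Mir1298 lies above that of Mir1264 and meets that of Mir448. Without Mir1298, the summed reads of the other 4 members were 110 and 308, a log2 ratio of 1.09, against 1.80 for all 5. The coefficient of variation of CPM over the 2 libraries was 91.9% for Mir1298, 68.5% for Mir448, 48.7% for Mir764 and 45.6% for Mir1264. Over all 389 loci, edgeR's common dispersion gave a biological coefficient of variation of 0.317, which is net of counting error and follows TMM scaling, so it is not on the same basis.

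**Figure D3:**
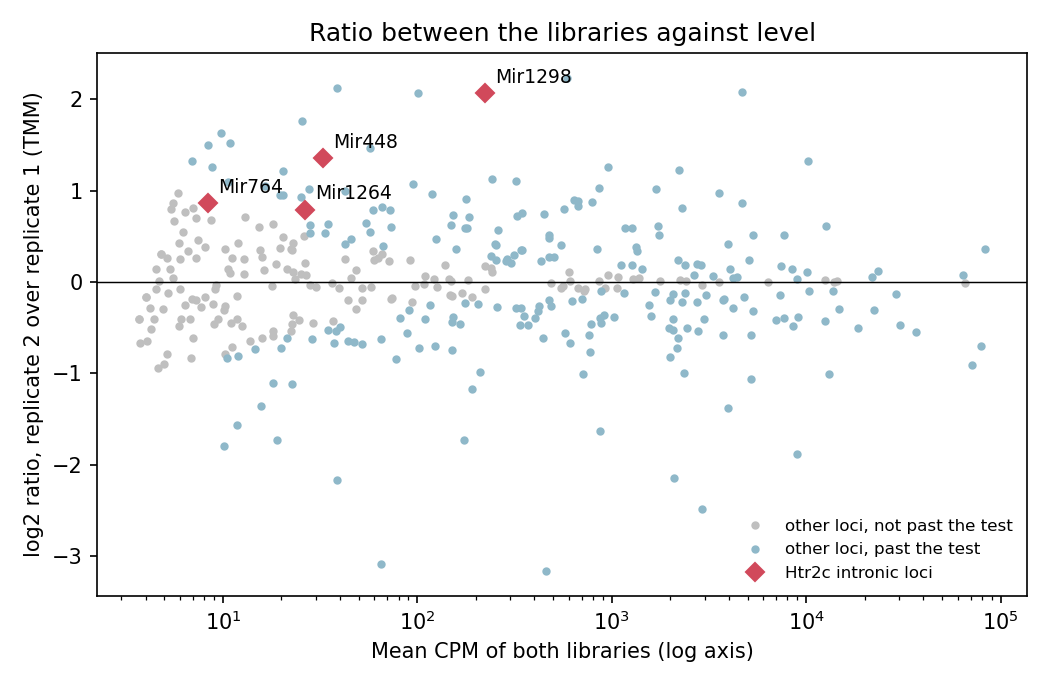
Log2 ratio of replicate 2 over replicate 1 (TMM) against mean CPM on a log axis for the 389 detected loci; blue points passed the exact binomial test, grey points did not, and red diamonds are the 4 detected members. All 4 lie above 0, from 0.79 for Mir1264 to 2.06 for Mir1298.

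Loci of nearly the same level show how the members stand among their neighbours. The closest to Mir1298 in mean CPM were Mir496a and Mir1188 above and Mir7-2 and Mir29c below. Their log2 ratios were 0.16, 0.17, −0.07 and −0.98. The closest to Mir448 were Mir494 and Mir504 above, at 0.63 and 0.54, and Mir206 and Mir3064 below, at −0.06 and −0.45. Mir504 is itself an X-linked intronic locus, in Fgf13, with 70 and 134 reads. At each of these 8 loci the log2 ratio was lower than at the member beside it.

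At the lower levels some neighbours went as far as the member. Mir152 stood next to Mir1264, with 29 and 130 reads and a log2 ratio of 1.76. The others near Mir1264 were Mir135a-1 (0.07), Gm49347 (0.21) and Mir6769b (0.51). Mir218-1 stood next to Mir764, with 11 and 41 reads and a log2 ratio of 1.50. The remaining neighbours of Mir764 were Mir7019 (0.68), Mir7046 (0.38) and Mir6994 (−0.16).

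MicroRNAs in introns of Clcn5 and Gabre, which are also X-linked, were compared next. Of the X-linked intronic Mir loci 20 were detected, members included, and these hosts do not stand for all of them. Clcn5, a chloride transporter gene, hosts 5 Mir loci on its own strand, all detected. Their log2 ratios ran from −0.38 for Mir500 to 0.21 for Mir188, with a median of −0.06. By the exact binomial test 1 was higher and 2 were lower in replicate 2. Their summed level was 2989.8 and 3190.8 CPM, against 118 and 464 CPM for the Htr2c members. Gabre, a GABA-A receptor subunit gene, hosts Mir224 with 18 and 20 reads (log2 ratio −0.25, adjusted p = 0.72 by the exact test) and Mir452 with 2 reads in each library. No test compared the host genes with each other.

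Protein-coding hosts with at least 3 detected Mir loci in their introns numbered 3, a grouping made after the values were seen. Intronic here means that a locus overlaps no exon in any transcript of its host, which can leave other hosts out. In Htr2c all 4 detected loci were above 0. In Clcn5, 1 of 5 was above 0. In Sfmbt2, host of a rodent microRNA cluster on chromosome 2, 3 of 7 were above 0, with log2 ratios from −0.45 to 0.54. Over all 389 detected loci the median log2 ratio was −0.0098, so loci above 0 were the smaller part.

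**Figure D4:**
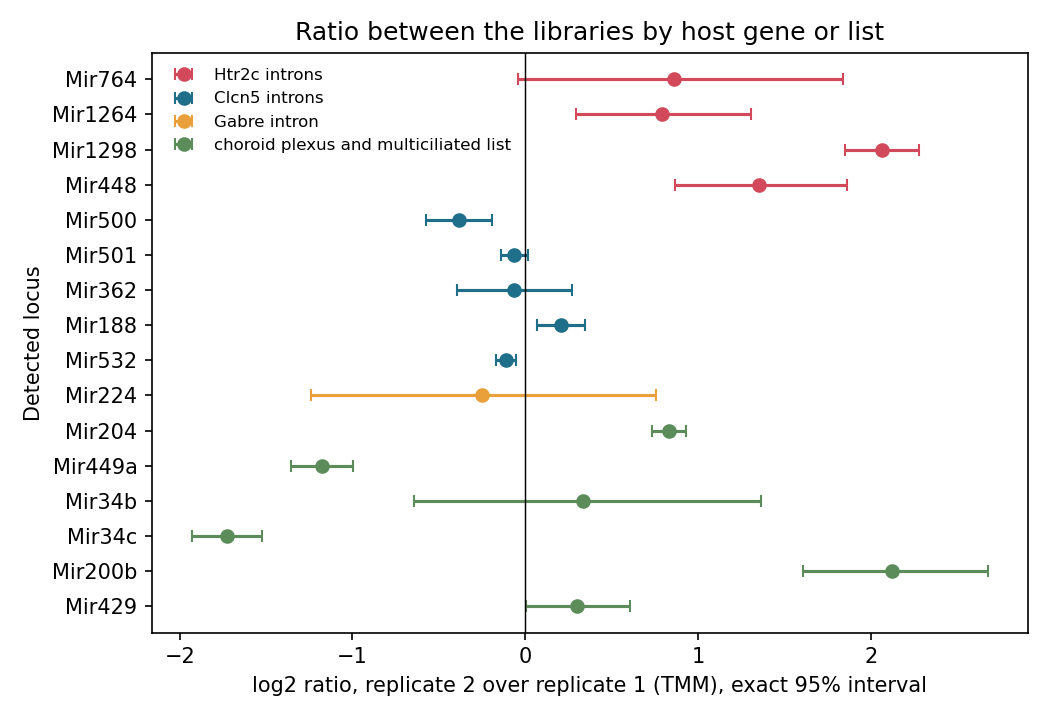
Log2 ratio of replicate 2 over replicate 1 (TMM) with exact 95% intervals for detected loci in introns of Htr2c (red), Clcn5 (blue) and Gabre (orange), and of the choroid plexus and multiciliated list (green). The red points lie at 0.79 or above, the blue ones between −0.38 and 0.21, and the green ones on both sides of 0.

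Since Htr2c is abundant in choroid plexus, microRNAs known from its epithelium and from multiciliated cells were set beside the members. Of 10 listed loci 6 were detected, and Mir449b was at 0 in both libraries. By the exact binomial test 2 were higher and 2 lower in replicate 2, with a median log2 ratio of 0.32. The summed level of the 10 was 1038.6 CPM in replicate 1 and 1269.7 CPM in replicate 2, a 1.22-fold difference, against 3.92-fold for the members. Without Mir204, the locus with the largest CPM difference, the sum was at 0.635 of that in replicate 1. Its detected loci thus lay on both sides of 0.

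Mir204, hosted by a Trpm channel gene and abundant in choroid plexus, had 1219 and 2864 reads, a log2 ratio of 0.83 (exact test, adjusted p = 3.45e-67). Mir211, its relative, was below the minimum with 6 and 19 reads. Mir200b, known from epithelia, had 36 and 207 reads, with a log2 ratio of 2.12 (exact test, adjusted p = 1.58e-20). Its relative Mir429 had a log2 ratio of 0.30 and did not pass, and Mir200a, with 9 and 19 reads, was below the minimum. Mir200c, a relative outside the list, had 45 and 68 reads and did not pass (log2 ratio 0.20, exact test, adjusted p = 0.61). Mir449a and Mir34c, known from multiciliated cells, went the other way, with 698 and 408 reads (log2 ratio −1.17) and 712 and 284 reads (−1.73). Mir34b had 15 and 25 reads (0.34), and Mir449c 1 and 3.

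Lists for other cells of the cortex went in both directions, and in each of the sums below the locus with the largest CPM difference made up most of that of the list or exceeded it. The 12 neuronal loci summed to 33386 and 42518 CPM in replicates 1 and 2, a 1.27-fold difference, with 3 higher and 3 lower past the test of 8 detected. Below the minimum were Mir124a-1 (6 and 10 reads), Mir124a-2 (5 and 12), Mir124a-3 (0 and 7) and Mir9-2 (3 and 9). Reads that map to several places enter no locus, so the sum can miss reads of these families, which was not tested. Mir128-1 alone went from 5376 to 15159 CPM, and without it the sum was 0.977 of that in replicate 1. The 4 microglial and leukocyte loci summed to 691 and 1233 CPM, 1.78-fold, of which Mir150 supplied 518 and 1068 CPM. Without Mir150 that sum was at 0.951 of replicate 1. Of its 3 detected loci Mir150 was higher, Mir155 lower (log2 ratio −0.72), and Mir142 did not pass (0.25). Mir223 was below the minimum in replicate 1 alone, with 3 and 45 reads (1.09 and 14.0 CPM), and was not tested.

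The endothelial and mural list stood at 0.641 of its sum in replicate 1, or at 0.942 without Mir126a, and 1 locus was higher past the test, Mir145a (log2 ratio 0.36), and 2 lower, Mir126a (−1.01) and Mir143 (−0.28). The erythroid list stood at 0.593, with Mir451a lower past the test (908 and 510.3 CPM) and Mir144 not past the test (0.13). The oligodendrocyte list stood at 0.344, with both of its loci, Mir219a-2 and Mir338, lower past the test, and at 0.664 without Mir219a-2. The loci left out here were those with the largest CPM difference in each list, chosen after their values were seen. In a bulk library fewer cells of a type and less RNA per cell cannot be told apart, and the part of any of these cell types in the ratios of the members was not tested.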

How the data were processed

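Whole read counts per microRNA gene were deposited for 2 libraries, made by the authors on mm10 with GENCODE M21, per the lists of files deposited beside them. For aligner, counter and trimming the sources used here give nothing. There are 3 count columns without names, read from their values as without strand, RNA strand and opposite strand. The RNA strand was used. Library sizes leave out the 4 rows without a gene. In replicates 1 and 2 they held 18.1% and 22.8% unmapped, 40.6% and 37.9% multiply mapped, 5.93% and 6.03% on no locus and 0 ambiguous reads.

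All 2202 identifiers matched GENCODE M21. CPM used assigned totals. Ratios used edgeR 4.0.16 TMM (DESeq2 1.42.0 size factors as an alternative) and scipy 1.17.1 exact binomial tests, which were tested on simulated counts. The simulation drew counting error alone and used library totals, so it did not test spread between libraries or TMM scaling. Hairpins were folded with RNAfold 2.7.2. Named loci were the members, the 2 detected loci next above and below each in mean CPM, and the detected loci of the lists. Undetected list loci, Mir200c, Mir7062, Gm22650 and Gm24627 were added after their values were seen. Alternatives were other count columns, totals, scalings and minimums, and each replicate left out. The members and lists were chosen with earlier results of these data known.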

Additional observations from a re-analysis of the deposited data

How the results depend on the processing

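The direction of all 4 ratios was the same under each alternative that kept the locus. At a minimum of 50 reads in each library, 1 member was detected, Mir1298, and 1 was higher past the test, since fewer loci entered. Mir764 passed when scaled by library totals (log2 ratio 1.04, adjusted p = 0.029), and its adjusted p ran from 0.077 to 0.13 under the other settings. With replicate 1 or 2 left out, the mean level of Mir1298 is the lone library's, 78.1 to 368 CPM, and the summed level of the members 118 to 464 CPM, so each level depends on which library is read by more than 1.5 times. With all reads of the file as the total, Mir1298 stood at 75.1 CPM and the members together at 98.2 CPM, against 223 and 291 CPM. These lower values lay within 1 SD of the reported means only because the SDs were 205 and 244 CPM, so they do not show a stable level. Mir764 at 2.84 CPM and Mir1264 at 8.98 CPM, with smaller SDs, moved by more than 1 SD. No ratio can be had from 1 library. No paired analysis was possible because the design has 1 group. Depth limits Mir1912, with 5 reads in all, and the interval of Mir764.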

Other observations

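Htr2c holds 2 further annotated microRNA loci on its strand that carry Gm symbols and are not counted among the members. Gm22650 (chrX:146999405-146999509) had 0 reads in replicate 1 and 5 in replicate 2. Gm24627 (chrX:147106939-147107076) had no read in either library, where the one-sided limits of a count of 0 (3 reads) are 1.09 and 0.935 CPM. RefSeq places the mature products mmu-miR-1911-5p and mmu-miR-1911-3p at Gm24627.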
